A study of Rattus norvegicus with 8 samples.

Results

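The let-7 family comprised the 9 mature miRNAs rno-let-7a-5p, let-7b-5p, let-7c-5p, let-7d-5p, let-7e-5p, let-7f-5p, let-7g-5p, let-7i-5p and rno-miR-98-5p, chosen by name from the 758 rat miRNAs on an Agilent miRNA microarray. No measured value entered the rule of choice, but earlier results of these data were known when it was made. The microarray examined the left medial vestibular nucleus (MVN), the brainstem nucleus that receives input from the vestibular nerve, in 7-week-old male Sprague–Dawley rats. The UVD group had unilateral vestibular deafferentation, in which the left labyrinth was opened and ethanol was injected into it, and was harvested at 4 d or at 4 h after surgery. The SO group had a sham operation, in which the middle ear was exposed but the vestibule was neither opened nor injected, and was harvested at the same 4 d and 4 h. Each of the 4 groups had 2 arrays, and each array carried RNA pooled from the MVNs of 3 rats. Differences between 2 arrays of a group are therefore differences between pools of rats. Neither group was an unoperated control, and anesthesia and middle ear surgery were common to all of the rats.

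let-7 miRNAs are among the most abundant miRNAs of the adult brain. A miRNA guides an Argonaute protein to messenger RNAs that pair with its seed, the stretch near its 5′ end, and represses them. The let-7 miRNAs accumulate as cells differentiate. In stem cells and in the early embryo their maturation is blocked by the RNA-binding protein LIN28, which is itself a let-7 target. Other targets of the family include RAS, MYC and HMGA2 messenger RNAs, and in mouse neural stem cells let-7b slows proliferation by repressing the nuclear receptor TLX and cyclin D1.

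All 9 members were found in the RefSeq miRNA table of the rat build GRCr8. Their mature sequences are shown because the members share a seed and differ from each other only at a few bases, which bears on how separately an array probe can measure them. The seed, bases 2 to 8, is in capitals.
rno-let-7a-5p: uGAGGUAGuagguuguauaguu
rno-let-7b-5p: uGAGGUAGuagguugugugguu
rno-let-7c-5p: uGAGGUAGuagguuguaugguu
rno-let-7d-5p: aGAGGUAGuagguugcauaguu
rno-let-7e-5p: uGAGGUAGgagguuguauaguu
rno-let-7f-5p: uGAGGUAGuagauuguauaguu
rno-let-7g-5p: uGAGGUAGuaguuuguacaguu
rno-let-7i-5p: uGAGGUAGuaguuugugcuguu
rno-miR-98-5p: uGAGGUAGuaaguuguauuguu

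The 9 members had the seed GAGGUAG in common, and no other of the 693 mature rat miRNA names in the table had it, so the family held 1.30% of the names. All members were 22 bases long. With positions counted from 1 at the 5′ end and the let-7a-5p base given first, let-7c-5p differed from let-7a-5p by A19G, let-7e-5p by U9G and let-7f-5p by G12A. let-7b-5p differed by A17G and A19G, let-7d-5p by U1A and U16C, let-7g-5p by G12U and U18C, and miR-98-5p by G11A and A19U. let-7i-5p was the farthest from let-7a-5p, with G12U, A17G, U18C and A19U. Of the 36 pairs of members, 4 differed at 1 base and 10 at 2 bases, and the pair of let-7d-5p and let-7i-5p differed at 6. The signal of a member may therefore hold signal from a near-identical member, and differences between members are uncertain to that extent.

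The 9 mature miRNAs come from 12 precursor genes. let-7a-5p, let-7c-5p and let-7f-5p have 2 precursors each, and the array cannot tell which precursor a mature miRNA came from. Mirlet7a1, the let-7f-1 gene and Mirlet7d lie within 10 kb of each other on chromosome 17, inside a long noncoding RNA gene. Mirlet7c2 and Mirlet7b are neighbors on chromosome 7. Mirlet7f2 and Mir98 lie together on chromosome X within the span of Huwe1, which encodes a ubiquitin ligase. The other 3 clusters also hold miRNAs of other families, with Mirlet7e between Mir99b and Mir125a on chromosome 1, Mirlet7c1 beside Mir99a on chromosome 11 and Mirlet7a-2 beside Mir100 on chromosome 8. Mirlet7g on chromosome 8 and Mirlet7i on chromosome 7 had no miRNA gene within 10 kb. The gene neighborhoods are those of GRCr8, and the array design names an older build.

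The 8 arrays were 1 slide and 1 scan. Between 378 and 430 miRNAs were detected per array, and the 422 miRNAs compared were those that some group had on both of its arrays. Lists of miRNAs enriched in particular cell types were also looked up. The 5 neuronal miRNAs of the list, miR-124-3p among them, were detected on all 8 arrays, as were the 3 oligodendrocyte miRNAs, among them miR-219a-5p, which is enriched in myelinating cells. All miRNAs of the muscle, erythroid, vessel and choroid plexus lists were detected on all 8 arrays too. Detection therefore cannot check the labeled tissue. The UVD arrays lay in 1 row of the slide and the SO arrays in the other, so slide row and operation cannot be told apart. In both rows the arrays at 4 d lay in columns 1 and 2 and those at 4 h in columns 3 and 4. Slide column and timepoint therefore cannot be told apart either. Replicate 1 of the SO group at 4 h was the lowest array for most members, and results that move with it are given with and without it.

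All 9 members were detected on all 8 arrays. Each was measured by 2 probes of 8 spots each, all member spots were well above background, and 0 were saturated. The signal of the spots of a probe on an array varied with a median coefficient of variation of 8.14%. The ratio of the 2 probes of a member varied little between arrays, with an SD between 0.01 and 0.06 on the log2 scale. The profiles of both probes over the 8 arrays correlated with Pearson's r between 0.975 for let-7i-5p and 0.999 for let-7b-5p. Within a member, therefore, both probes had similar profiles over the unnormalized arrays, though these profiles share each array's overall brightness. The order of the arrays was not always the same by both probes, as for let-7i-5p on the SO arrays at 4 d.

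The family held between 19.0% and 23.3% of the summed signal of an array. Its share of the summed total gene signal, the background-subtracted signal that the scanner software adds over the spots of each miRNA, was 23.1% and 23.3% on the UVD arrays at 4 d and 21.2% and 21.6% on the UVD arrays at 4 h. It was 21.8% and 22.2% on the SO arrays at 4 d and 19.0% and 20.8% on the SO arrays at 4 h. The shares of the 4 groups did not overlap, and at each timepoint the UVD arrays lay above the SO arrays. The share is a description of 8 arrays and depends on all other miRNAs as well. let-7c-5p contributed between 4.35% and 5.37% of an array's signal, let-7a-5p between 3.89% and 4.89%, and miR-98-5p between 0.196% and 0.241%. In pooled tissue, fewer cells of a type and less of a miRNA per cell cannot be told apart.

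**Figure D1:**
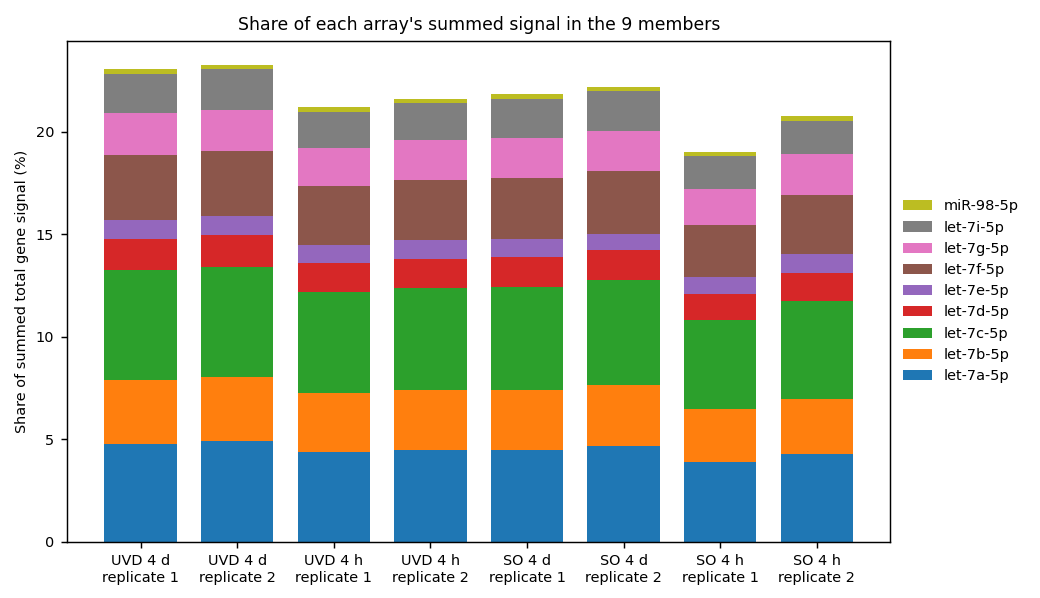
Share of the summed total gene signal of each array (%, vertical axis) held by the 9 members, stacked by member, for the 8 arrays by group and replicate (horizontal axis). The 2 UVD arrays at 4 d had 23.1% and 23.3%, above the 6 other arrays, and replicate 1 of the SO group at 4 h had 19.0%, below all others.

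Of the cell type lists, those of microglia and leukocytes and of the choroid plexus had summed levels in the same order of groups, UVD at 4 d, SO at 4 d, UVD at 4 h and SO at 4 h from high to low, with no overlap. The 4 miRNAs of microglia and leukocytes, all detected on all arrays, had a summed normalized intensity of 3527 to 3730.4 in the UVD group at 4 d, 3119 to 3193 in the UVD group at 4 h, 3299.5 to 3439 in the SO group at 4 d and 2874 to 2877 in the SO group at 4 h. Most of that sum was miR-150-5p, between 2370.1 and 2801 on every array, and the order was not that of each miRNA in the list. miR-142-5p was 45.3 and 48.9 in the UVD group at 4 h, below 54.5 and 56.5 in the SO group at 4 h, and the arrays of miR-142-3p overlapped between these groups. The 3 choroid plexus miRNAs, with miR-204-5p as most of the sum, came to 5219.9 to 6899.9 in the UVD group at 4 d, 3990.9 and 3991 in the UVD group at 4 h, 3991.3 to 4211.2 in the SO group at 4 d and 3859.8 on both SO arrays at 4 h, so that apart from the UVD group at 4 d the groups lay close together. This order was also not that of each miRNA in its list. miR-1298 was 25.25 and 22.66 in the SO group at 4 h, above 18.65 and 16.07 in the UVD group at 4 h. It was 18.65 and 10.54 in the SO group at 4 d. For miR-211-5p the groups overlapped.

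The SO group at 4 h, in which the family's share was lowest, also stood apart in some neuronal and positional miRNAs. These were miR-137-3p, miR-10a-5p and miR-10b-5p. The sum of the neuronal list, 50980 to 53989 in the UVD group at 4 d, 46298 to 47914 in the UVD group at 4 h, 46559 to 50498 in the SO group at 4 d and 46181 to 50072 in the SO group at 4 h, does not show this. Within it, miR-137-3p was 473.5 and 534 in the UVD group at 4 d and 604 and 614 in the UVD group at 4 h, against 614 and 524 in the SO group at 4 d and 1030.2 and 1046 in the SO group at 4 h. The other neuronal miRNAs did not set the SO group at 4 h apart. Their log2 differences, UVD minus SO at 4 h, were −0.09 for miR-124-3p, −0.03 for miR-128-3p, 0.03 for miR-138-5p and 0.11 for miR-9a-5p. Of the 3 miRNAs listed for hindbrain position, miR-10a-5p, encoded in a Hox cluster, was 168 and 171 in the UVD group at 4 d and 200.0 and 205 in the UVD group at 4 h, against 226 and 159 in the SO group at 4 d and 491 and 452 in the SO group at 4 h. miR-10b-5p was 256 on both SO arrays at 4 h and between 93.3 and 135 on the 6 others, whereas the groups of miR-218a-5p overlapped at 4 h. miR-137-3p, miR-10a-5p and miR-10b-5p fell at 4 d against 4 h in the SO group, by 0.87, 1.31 and 1.17 on the log2 scale (SE 0.10, 0.17 and 0.16, adjusted p = 0.0383, 0.0386 and 0.0437 in limma). For the UVD against the SO group at 4 h the differences were −0.77, −1.22 and −0.95 (adjusted p = 0.0686, 0.0686 and 0.0866). These miRNAs were singled out after their values had been seen. Their part, or that of the tissue or cell types the lists mark, in the family's values was not tested.

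Normalized intensity values are total gene signals after quantile normalization, which gives every array the same set of values. A miRNA that kept its rank from array to array has the same normalized value on them, so small changes of a member that did not move it past another miRNA are not kept. let-7d-5p is the clearest case. It was 8875 on both UVD arrays at 4 d, on both UVD arrays at 4 h, on both SO arrays at 4 d and on replicate 2 of the SO group at 4 h, and 7829 on replicate 1 of the SO group at 4 h. It ranked 19 on the first 7 of these arrays and 21 on the last. The log2 range over the 8 arrays had a median of 0.18 over the members and of 0.47 over the 422 tested miRNAs.

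let-7a-5p, the member with the same mature sequence as the founding let-7 of Caenorhabditis elegans, had normalized intensity values of 29054 and 30366 in the UVD group at 4 d and of 26530.4 and 29054 in the UVD group at 4 h. The SO group had 27832 on both arrays at 4 d and 23574 and 26106 at 4 h. In quantile normalized values, let-7a-5p was the member whose UVD arrays lay above the SO arrays at both timepoints.

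let-7c-5p, which is 1 base from let-7a-5p and is encoded in part beside miR-99a, was 33707 on both UVD arrays at 4 d and 30366 on both UVD arrays at 4 h. In the SO group it was 30366 on both arrays at 4 d and 26106 and 30366 at 4 h. It was the brightest of the 758 miRNAs on both UVD arrays at 4 d and ranked 2 on 5 others, so its change over time in the UVD group was 1 rank. Ranks compare different probes and say nothing of which miRNA is more abundant.

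let-7f-5p, encoded beside let-7a-5p and again beside miR-98-5p, was 19146 and 21949 in the UVD group at 4 d and 18049 on both UVD arrays at 4 h, against 18049 and 18373 in the SO group at 4 d and 17472 and 18372.6 in the SO group at 4 h. Both UVD arrays at 4 d lay above the 6 other arrays. miR-98-5p, its neighbor on chromosome X, was 1528 and 1408 in the UVD group at 4 d and 1275 and 1408 in the UVD group at 4 h, against 1408 and 1384 in the SO group at 4 d and 1099 and 1357 in the SO group at 4 h. It had the widest log2 range of the members, 0.48, and its UVD and SO arrays overlapped at both timepoints.

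let-7i-5p, which has a single precursor with no miRNA gene nearby, was 11569 and 11967 in the UVD group at 4 d and 10834.5 on both UVD arrays at 4 h. In the SO group it was 11569 on both arrays at 4 d and 10834.5 on both arrays at 4 h. In quantile normalized values, let-7i-5p was the member with higher values on all arrays at 4 d than at 4 h in both groups. let-7g-5p, the other member with a lone precursor, was 12682 on both UVD arrays at 4 d and 11967 on both UVD arrays at 4 h, against 11967 and 12682 in the SO group at 4 d and 11569 and 11967 in the SO group at 4 h.

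let-7b-5p was 18373 and 19146 in the UVD group at 4 d and 17472 on both UVD arrays at 4 h, against 18373 and 18049 in the SO group at 4 d and 18049 and 17472 in the SO group at 4 h. let-7e-5p, the member in the cluster of miR-99b and miR-125a, was 5604 and 5418 in the UVD group at 4 d and 5418 and 5604 in the UVD group at 4 h. It was 5604 and 5418 in the SO group at 4 d and 5271 and 5604 in the SO group at 4 h. Its log2 range of 0.09 was the narrowest of the members, and its groups overlapped in every comparison.

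**Figure D2:**
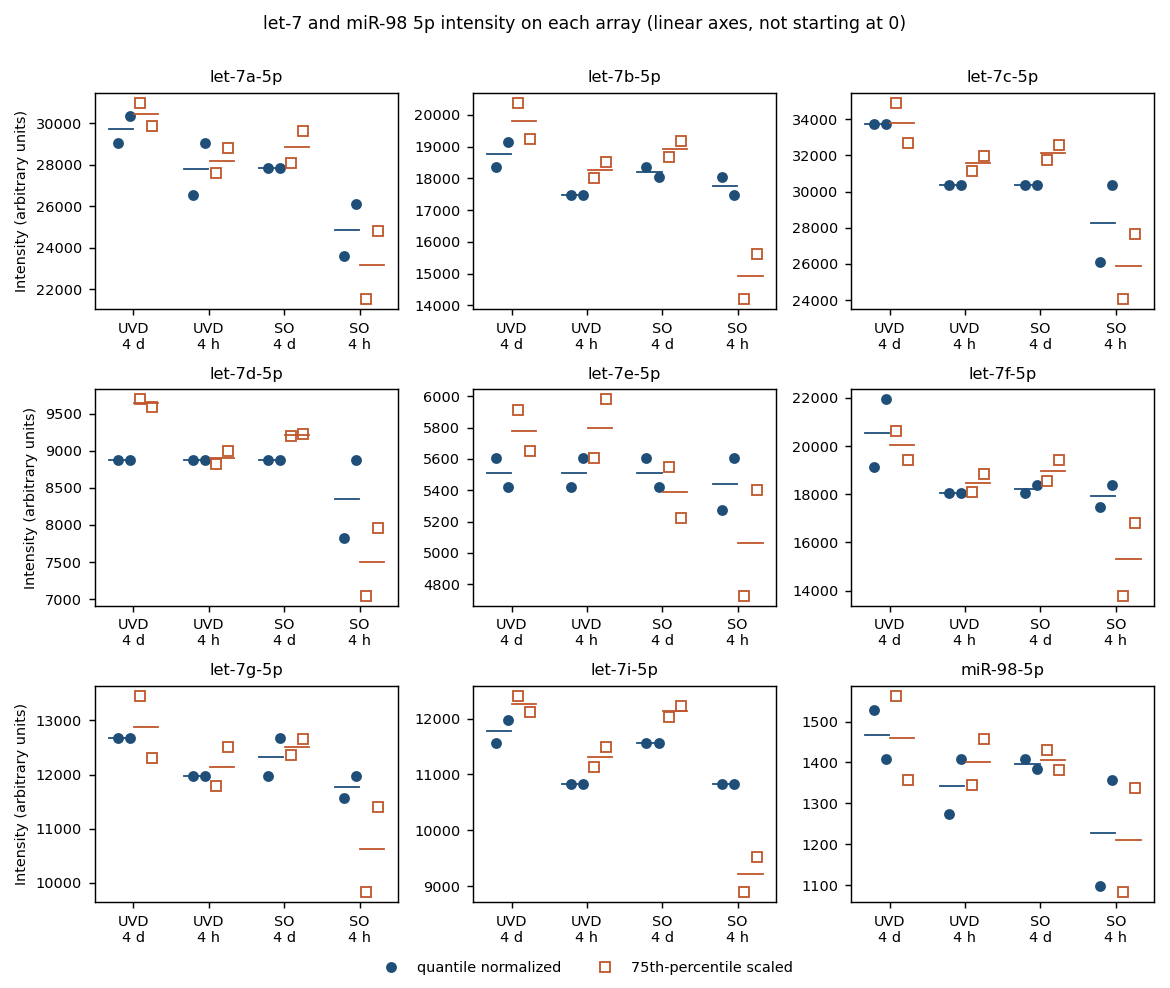
Intensity (arbitrary units, linear vertical axes that do not start at 0) of the 9 members in the UVD group at 4 d and 4 h and the SO group at 4 d and 4 h, with 1 point per array and a line at the mean of the 2 arrays. Filled circles are quantile normalized values and open squares are values scaled to each array's 75th percentile; let-7d-5p has 1 quantile normalized value, 8875, on 7 arrays and 7829 on the eighth.

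The UVD and SO groups were compared at each timepoint to ask which miRNAs respond to the loss of vestibular input. At 4 d, no member passed limma's test (adjusted p between 0.745 and 1.00), where 0% of the 422 tested miRNAs did. let-7f-5p had the largest difference, 0.17 on the log2 scale (SE 0.08, 95% confidence interval −0.03 to 0.37, adjusted p = 0.745), followed by let-7c-5p with 0.15 (SE 0.08). The median over the members was 0.04, with 7 values above 0 and 2 at 0, and that over all tested miRNAs was −0.02. let-7a-5p, let-7c-5p and let-7f-5p, 3 of the 9 members, were higher on both UVD arrays than on both SO arrays, as were 12.1% of all tested miRNAs.

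At 4 h, no member passed (adjusted p between 0.370 and 1.00), where 0.474% of the tested miRNAs did. let-7a-5p had a difference of 0.16 (SE 0.08, 95% confidence interval −0.04 to 0.36) and miR-98-5p of 0.13 (SE 0.12), whereas let-7b-5p had −0.02 (SE 0.05) and let-7i-5p 0 (SE 0.05). The members' median was 0.02, with 7 values above 0, 1 below and 1 at 0, and that of all tested miRNAs was −0.01. In quantile normalized values, let-7a-5p was higher on both UVD arrays, 1 member of 9, beside 22.5% of all tested miRNAs. Without replicate 1 of the SO group at 4 h, the members' median was 0 and 1 member had a value above 0.

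Averaged over both timepoints, all 9 members had differences above 0, between 0.01 for let-7b-5p and 0.13 for let-7c-5p, with a median of 0.05 beside −0.02 for all tested miRNAs. No member passed (smallest adjusted p = 0.351 in limma), and 0% of the tested miRNAs did. let-7a-5p had an averaged difference of 0.13 (SE 0.06, 95% confidence interval −0.01 to 0.27). Its quantile normalized values were higher on both UVD arrays at both timepoints, which held for 2.37% of all tested miRNAs. Without replicate 1 of the SO group at 4 h, the median was 0.02 and 7 members had values above 0. An interval of this width leaves changes of let-7a-5p of up to 0.27 on the log2 scale within its bounds.

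The timepoints were compared within each operation to ask which miRNAs change during the first days after surgery. In the UVD group, 7 members had values above 0 at 4 d against 4 h and 2 members, let-7d-5p and let-7e-5p, had a difference of 0. The median was 0.10, and −0.01 over all tested miRNAs. let-7f-5p had 0.18 (SE 0.08), let-7c-5p 0.15 (SE 0.08) and let-7i-5p 0.12 (SE 0.05, 95% confidence interval 0.00 to 0.24). No member passed (smallest adjusted p = 0.316 in limma), and neither did any other miRNA (0%). let-7b-5p, let-7c-5p, let-7f-5p, let-7g-5p and let-7i-5p, 5 of the 9 members, were higher on both arrays at 4 d, as were 19.0% of all tested miRNAs.

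In the SO group, all 9 members had values above 0 at 4 d against 4 h, with a median of 0.09 beside 0.00 over all tested miRNAs. miR-98-5p had 0.19 (SE 0.12), let-7a-5p 0.17 (SE 0.08) and let-7i-5p 0.09 (SE 0.05), and the others lay between 0.02 and 0.11. No member passed (smallest adjusted p = 0.282 in limma), where 1.66% of the tested miRNAs did. let-7a-5p, let-7i-5p and miR-98-5p were higher on both arrays at 4 d, 3 of 9 beside 25.6% of all tested miRNAs. Without replicate 1 of the SO group at 4 h, the median was 0.04 and 5 members had values above 0. This comparison and that of the operations at 4 h use the same SO arrays, so their values are not independent.

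Averaged over both operations, let-7i-5p had a difference of 0.11 between 4 d and 4 h (SE 0.03, 95% confidence interval 0.02 to 0.19), which was the smallest unadjusted p of the family (0.0243) and did not pass after adjustment over all tested miRNAs (adjusted p = 0.122 in limma). The difference between the timepoints was above 0 for all 9 members, with a median of 0.10, and of 0.00 over all tested miRNAs, of which 1.66% passed. Without replicate 1 of the SO group at 4 h, 7 members had values above 0 and the median was 0.08. In quantile normalized values, let-7i-5p was higher on all 4 arrays at 4 d within both operations, 1 of 9 members beside 8.53% of all tested miRNAs. Its adjusted p was 0.0425 with an intensity trend in the variance and ranged from 0.0379 to 0.808 over 22 alternative fits. The highest and the lowest came from its probes taken alone, with a difference of 0.04 (SE 0.06) by the first probe and of 0.20 (SE 0.02) by the second.

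The difference between the time changes of the UVD and SO groups had a median of 0.02 over the members and 0.02 over all tested miRNAs, with 5 members above 0 and 4 below. Without replicate 1 of the SO group at 4 h, or without the second UVD array at 4 h, 8 members were above 0. The widest was 0.16 for let-7f-5p (SE 0.11, 95% confidence interval −0.13 to 0.45, adjusted p = 0.626), and 0.237% of the tested miRNAs passed. The sign of this difference for the family turned with the scaling.

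**Figure D3:**
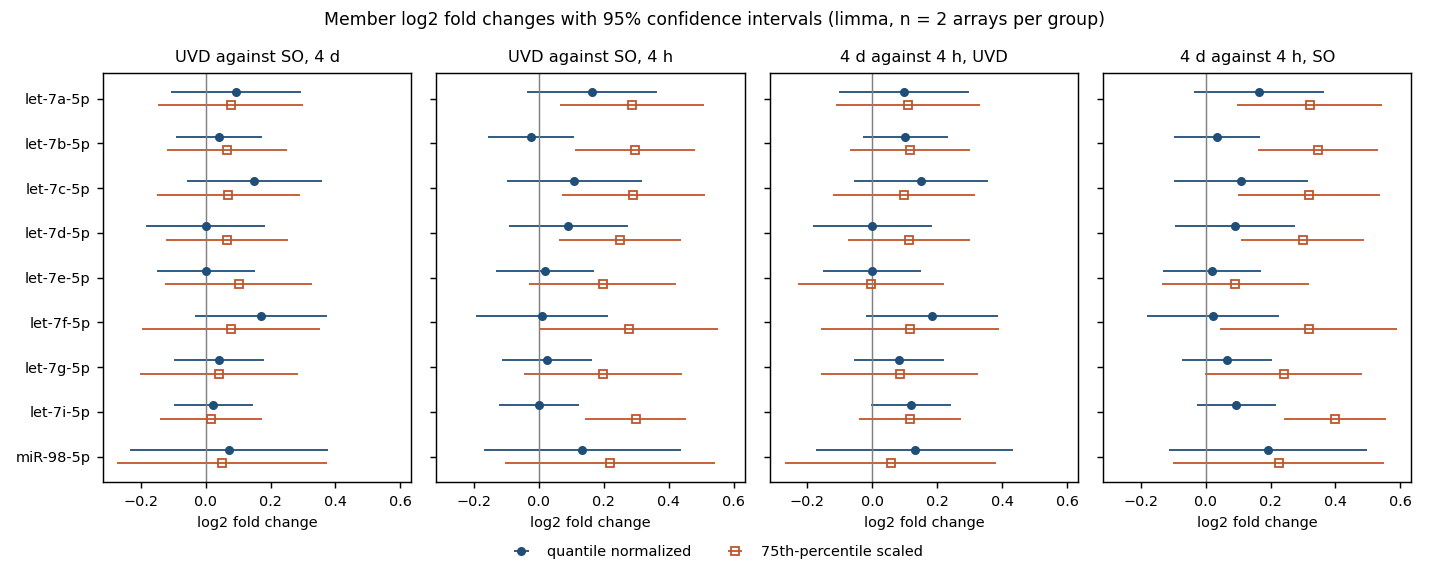
log2 fold change (horizontal axis) with 95% confidence intervals from limma for each member (rows), for UVD against SO at 4 d and 4 h and for 4 d against 4 h within UVD and within SO (panels), n = 2 arrays per group. For values scaled to the 75th percentile, the share of all tested miRNAs with intervals above 0 was not counted. Circles are quantile normalized values, in which every interval includes 0, and squares are values scaled to the 75th percentile, in which the intervals of 6 members lie above 0 for UVD against SO at 4 h (2 without replicate 1 of the SO group at 4 h) and of 6 members for 4 d against 4 h in SO.

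The members moved far more alike when arrays were scaled by a single factor. With each array scaled to the 75th percentile of the miRNAs detected on all arrays, which keeps the spacing between miRNAs, the 36 pairs of members had Pearson's r between 0.692 and 0.994 over the 8 arrays (median 0.962). With quantile normalization the range was −0.180 to 0.895 (median 0.684). These correlations share 1 scale factor per array and are descriptions. let-7e-5p was the least alike, with r = 0.840 to the mean profile of the family, beside 0.936 to 0.998 for the 8 other members.

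Under this scaling, let-7i-5p was 12410 and 12114 in the UVD group at 4 d and 11141 and 11487 in the UVD group at 4 h, against 12032 and 12226 in the SO group at 4 d and 8892 and 9527 in the SO group at 4 h. The SO arrays at 4 h stood below the 6 others. The same order held for 8 of the 9 members, with let-7e-5p as the exception, and replicate 1 of the SO group at 4 h was the lowest array for all 9. How many of all tested miRNAs had the SO arrays at 4 h lowest was not counted. Their median difference also had this direction. It was 0.12 on the log2 scale for UVD minus SO at 4 h and 0.09 for 4 d minus 4 h in SO. For let-7d-5p, tied on 7 arrays after quantile normalization, the scaled values were 9693 and 9584 in the UVD group at 4 d, 8817 and 8999 in the UVD group at 4 h, against 9197 and 9225 in the SO group at 4 d and 7045 and 7957 in the SO group at 4 h. Both scaled arrays at 4 d lay above both at 4 h within each operation for let-7a-5p, let-7b-5p, let-7c-5p, let-7d-5p, let-7f-5p and let-7i-5p. Both UVD arrays lay above both SO arrays at each timepoint for let-7a-5p, let-7b-5p, let-7c-5p, let-7d-5p and let-7e-5p. How many other miRNAs had these orders under this scaling was not counted.

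The scaled median difference at 4 h, UVD minus SO, was 0.28 over the members and 0.12 over all tested miRNAs. The family therefore lay 0.16 above the median shift of all tested miRNAs, against 0.04 after quantile normalization. Without replicate 1 of the SO group at 4 h it lay 0.05 above that shift, and without replicate 2 it lay 0.24 above. At 4 d, with all arrays, it lay 0.09 above that shift. Between 4 d and 4 h the family lay 0.19 above the shift of all tested miRNAs in the UVD group and 0.22 above it in the SO group, or 0.12 without replicate 1 of the SO group at 4 h. The shift of all tested miRNAs is a median over bright and dim miRNAs, and other miRNAs as bright as the members were not compared separately. let-7i-5p ranked 18 on both UVD and both SO arrays at 4 h, while its scaled values there were lower in the SO group. let-7i-5p had the largest scaled difference between the timepoints in the SO group, 0.40 (SE 0.06, adjusted p = 0.0751 in limma), and let-7e-5p the smallest, 0.09 (SE 0.09). With all 8 arrays no member passed the test in any comparison under this scaling, and 6 members each had unadjusted p-values under 0.05 for the UVD against the SO group at 4 h, for 4 d against 4 h in the SO group and for 4 d against 4 h averaged over both operations. How many of all tested miRNAs did so under this scaling was not counted. After quantile normalization, 72, 100 and 118 of the 422 tested miRNAs did so in limma in these comparisons, in that order. The members that did so then numbered 0, 0 and 1. The scaled counts of members moved with single arrays, and the first and second array of a group are its replicates 1 and 2. For the UVD against the SO group at 4 h, the count was 2 without replicate 1 of the SO group at 4 h, 9 without replicate 2 of it, 2 without the first UVD array at 4 h and 1 without the second. In the SO group the count was 3 without replicate 2 at 4 d, and over both operations it was 3 without the first UVD array at 4 h. let-7i-5p passed over both operations without replicate 1 of the SO group at 4 d (adjusted p = 0.0410 in limma). The difference between the time changes was below 0 for all 9 members, with a median of −0.20 and of −0.11 over all tested miRNAs, and 1 member was above 0 without replicate 1 of the SO group at 4 h.

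let-7 members were also set against the miRNAs of other families encoded in the same clusters and against miR-125b-5p. The miR-125b genes lie on the chromosomes of Mirlet7a-2 and Mirlet7c1, more than 10 kb from them. The ratio of 2 signals on the same array needs no normalization. Its size depends on the probes, and only its differences between arrays are read here. The log2 ratio of let-7a-5p to miR-125b-5p, a brain-enriched miRNA of the lin-4 family, was 0.27 and 0.21 on the UVD arrays at 4 d and −0.03 and 0.00 on the UVD arrays at 4 h. It was 0.05 and 0.09 on the SO arrays at 4 d and −0.23 and −0.05 on the SO arrays at 4 h. The 4 groups did not overlap, and the UVD arrays lay above the SO arrays at each timepoint. How many ratios of other miRNAs have such an order was not counted.

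The ratio of let-7c-5p to miR-125b-5p had the same order, with means of 0.39 ± 0.07 in the UVD group at 4 d, 0.15 ± 0.01 in the UVD group at 4 h, 0.23 ± 0.00 in the SO group at 4 d and 0.02 ± 0.13 in the SO group at 4 h (SD, n = 2 each). let-7a-5p to miR-100-5p, which lies beside Mirlet7a-2, had means of 3.63 ± 0.09 for UVD at 4 d, 3.39 ± 0.00 for UVD at 4 h, 3.48 ± 0.01 for SO at 4 d and 3.36 ± 0.01 for SO at 4 h. let-7c-5p to miR-99a-5p had 2.35 ± 0.02 for UVD at 4 d, 2.20 ± 0.05 for UVD at 4 h, 2.22 ± 0.00 for SO at 4 d and 2.11 ± 0.07 for SO at 4 h. In these 4 ratios both UVD arrays at 4 d were above the 6 other arrays. The ratios share let-7a-5p, let-7c-5p or miR-125b-5p. They are descriptions and were not tested, and the share of other ratios with this order is not known.

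let-7e-5p did not show this order against its own partners. Its log2 ratio to miR-99b-5p was 2.67 ± 0.03 for UVD at 4 d, 2.64 ± 0.07 for UVD at 4 h, 2.51 ± 0.11 for SO at 4 d and 2.68 ± 0.15 for SO at 4 h. Its ratio to miR-125a-5p was 1.18 ± 0.11 for UVD at 4 d, 1.13 ± 0.12 for UVD at 4 h, 1.09 ± 0.04 for SO at 4 d and 1.08 ± 0.16 for SO at 4 h. All groups overlapped in the ratio to miR-125a-5p, whereas in that to miR-99b-5p the SO arrays at 4 d lay below both UVD groups and overlapped the SO group at 4 h.

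**Figure D4:**
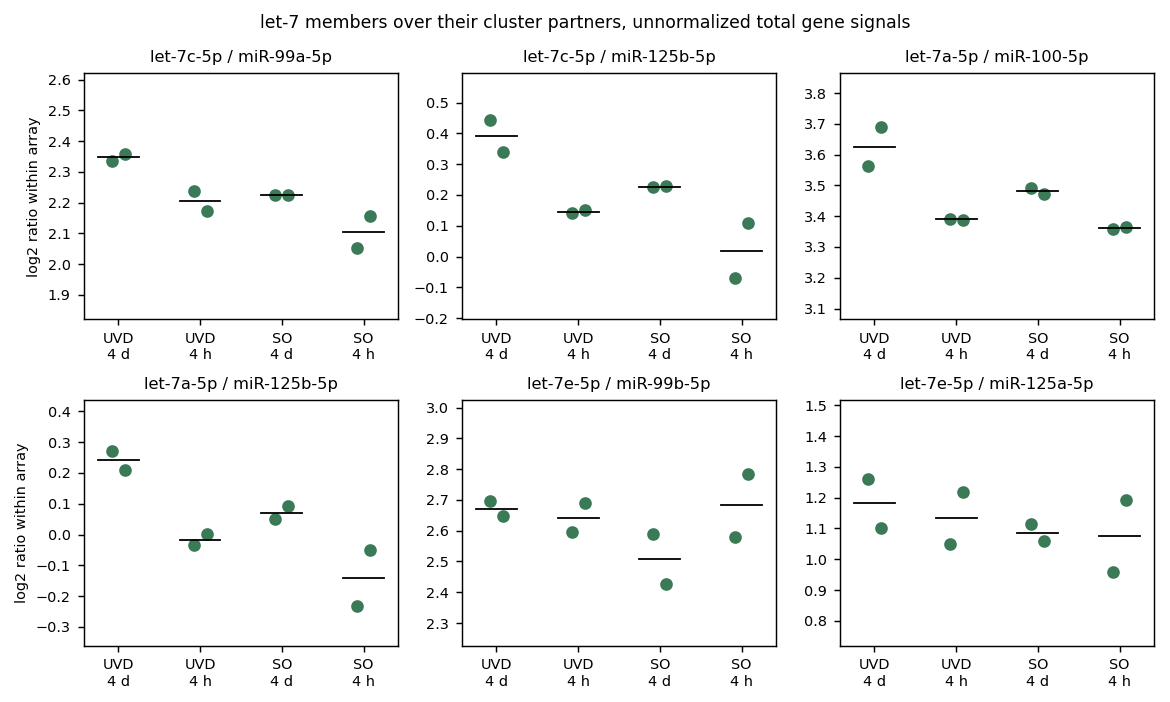
log2 ratio within each array (vertical axis, each panel spanning 0.8) of a let-7 member to a miRNA of another family, by group (horizontal axis), with 1 point per array and a line at the mean of 2 arrays. The other miRNA is from the same cluster, except miR-125b-5p, whose genes lie more than 10 kb from the let-7 genes. In the 4 panels with let-7a-5p or let-7c-5p both UVD arrays at 4 d lie highest, at 0.27 and 0.21 for let-7a-5p over miR-125b-5p, an order that the panels with let-7e-5p do not show.

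The partners themselves were listed with their 3p arms, and 9 of the 11 on the list were tested. None passed in any comparison. miR-125b-5p was 23574 and 26530.4 in the UVD group at 4 d, 29054 and 27832 in the UVD group at 4 h, 26530.4 on both SO arrays at 4 d and 30366 and 27832 in the SO group at 4 h. It was lower on all arrays at 4 d within both operations, 1 of the 9 tested partners beside 59 of the 422 tested miRNAs. Its averaged difference between 4 d and 4 h was −0.16 (SE 0.06, 95% confidence interval −0.31 to −0.01, adjusted p = 0.154 in limma). miR-99a-5p had 0.01 (SE 0.06), miR-100-5p 0.10 (SE 0.08), miR-99b-5p 0.13 (SE 0.06) and miR-125a-5p 0.09 (SE 0.05) in the same comparison.

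The 3p arms, the strands of the let-7 hairpins that are mostly degraded, were at the low end of the array. Of 12 on the list, 10 were on the array, 5 were detected on all 8 arrays and 5 were detected on none. The 5 detected were those of let-7a-1, let-7c-1, let-7d, let-7g and let-7i. let-7a-1-3p had normalized intensity values of 43.3 and 37.5 in the UVD group at 4 d and 41.1 and 45.3 in the UVD group at 4 h, against 40.7 and 44.9 in the SO group at 4 d and 37.1 and 39.4 in the SO group at 4 h. No 3p arm passed in any comparison, and their medians were −0.11 for the UVD against the SO group at 4 d and 0.05 at 4 h. At 4 d all 5 had values below 0, with 95% confidence intervals as wide as −1.56 to 0.98.

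The 4 miRNAs miR-3596a to miR-3596d on the array are annotated at the let-7 genes. They were listed after their values had been seen. miR-3596d lies opposite the let-7f-1 hairpin, and its 20 bases are shown because they lie wholly within the reverse complement of let-7f-5p.
rno-miR-3596d: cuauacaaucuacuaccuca
miR-3596c and miR-3596d were detected on 0 of the 8 arrays, and miR-3596a and miR-3596b on 1 SO array each.

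The 5 other tested miRNAs with profiles most like the family's were miR-15b-5p, miR-340-3p, miR-872-5p, miR-16-5p and miR-206-3p. Likeness was Pearson's r over the 8 arrays between a miRNA's log2 values and the mean of the members' centered log2 values. It was 0.960 for miR-15b-5p, 0.939 for miR-340-3p, 0.905 for miR-872-5p, 0.890 for miR-16-5p and 0.890 for miR-206-3p, and 0.980, 0.924, 0.940, 0.921 and 0.827 in the same order with values scaled to the 75th percentile. Among the members, r ranged from 0.514 for let-7e-5p to 0.968 for let-7c-5p after quantile normalization, with each member contributing to the mean. miR-15b-5p and miR-16-5p have a seed of their own and belong to 1 family, and miR-206-3p is a miRNA of skeletal muscle, with a log2 range of 2.10 over the arrays beside 0.48 for the widest member. The 5 were picked for this likeness, and it is a description.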

How the data were processed

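The authors deposited Feature Extraction 10.7.3.1 intensity files of 8 one-color (Cy3) arrays, with the total gene signal intensity of each miRNA and its probes, and a table of their own normalized intensity values, which their methods state were quantile normalized in GeneSpring. The signal from which that table was made is not given in the sources used here; its values are linear with a median of 45.5 on each array.

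Quantile normalization was applied to the total gene signals of all 8 arrays, with a floor of 1 before log2. The 422 miRNAs that some group had on both of its arrays were fitted with limma 3.58.1 (lmFit and eBayes on the 4 group means) in R 4.3.3. p-values were adjusted by Benjamini-Hochberg over the 422 miRNAs, with a threshold of 0.05, and SE and 95% intervals are limma's moderated ones. Having 2 arrays per group limits the precision. The fit was first tested on simulated data with known changes. Members and lists were chosen with earlier results of these data known. All 9 members are named, with the 5p arms of cluster partners, the 3p arms by count and range, and the 5 other miRNAs most like the family. The replicate numbers in the labels were not treated as pairing samples, since correlations of same-numbered deviations between groups lay between −0.255 and 0.193. Alternatives were other scalings and signals, each probe alone, other detection filters and floors, other variance models, a replicate block, the methods' t-test and leaving out each array.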

Additional observations from a re-analysis of the deposited data

How the results depend on the processing

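Over 22 alternative fits of 63 pairs of a member and a comparison, the sign of the log2 fold change turned in 81 of 1386 values, 4 of them by more than the SE, and 10 values passed the test. The precision of all of them is that of 2 arrays per group, and the cause of each change was not tested unless stated.

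The number of members that passed, 0 in all comparisons, became 1 for 4 d against 4 h averaged over both operations when the 75th percentile of all miRNAs set the scale (let-7i-5p, 0.36, adjusted p = 0.0482), with the authors' normalized values (let-7b-5p, 0.14, adjusted p = 0.0244), with the first probe (let-7f-5p, 0.10, adjusted p = 0.000748), with the second probe (let-7i-5p, 0.20, adjusted p = 0.0379) and with an intensity trend (let-7i-5p, 0.11, adjusted p = 0.0425). It became 1 with the first probe, let-7f-5p each time, for the UVD against the SO group at 4 h (0.19, adjusted p = 0.000317), for the average over both timepoints (0.10, adjusted p = 0.0015), for 4 d against 4 h in the SO group (0.19, adjusted p = 0.000317) and for the difference of the time changes (−0.19, adjusted p = 0.0015), and 1 with the second probe for 4 d against 4 h in the SO group (let-7i-5p, 0.25, adjusted p = 0.0292). The let-7f-5p calls have SEs of 0.003 to 0.007, because quantile normalization tied its values within groups. let-7f-5p had a difference of the time changes of 0.16, which turned to −0.20 and −0.22 under scaling to the 75th percentile of detected and of all miRNAs, and let-7i-5p had −0.092 for 4 d against 4 h in the UVD group with its first probe.

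The median over the members moved as follows. With scaling to the 75th percentile of detected miRNAs it was 0.28 for the UVD against the SO group at 4 h, 0.16 over both timepoints, 0.32 for 4 d against 4 h in the SO group, 0.21 over both operations and −0.20 for the difference of the time changes. With the 75th percentile of all miRNAs it was 0.076 at 4 d, 0.30 at 4 h and 0.18 over both timepoints, 0.20 in the UVD group, 0.43 in the SO group and 0.31 over both operations, and −0.22 for the difference. Without scaling it was 0.25 at 4 d and 0.13 over both timepoints, 0.46 in the UVD group, 0.24 in the SO group and 0.34 over both operations, and 0.22 for the difference. With quantile normalization computed without the members it was 0.063 at 4 h and 0.092 over both timepoints, 0.20 in the UVD group, 0.14 in the SO group and 0.17 over both operations. With the authors' values it was 0.075 at 4 h and 0.072 over both timepoints. With the median spot signal it was 0.067 for 4 d against 4 h in the UVD group and −0.030 for the difference. With the first probe it was 0 at 4 d and 0.012 over both timepoints, 0 in the UVD group and 0.039 over both operations, and with the second probe 0.060 at 4 h, 0.078 over both timepoints, 0.055 in the UVD group and 0.068 over both operations. Leaving out each array in turn gave 0 to 0.060 at 4 h, 0.019 to 0.090 over both timepoints, 0.036 to 0.099 in the SO group, 0.079 to 0.12 over both operations and −0.060 to 0.036 for the difference, and passed no member in any comparison. An alternative chosen after seeing the data combined the 75th percentile of detected miRNAs with leaving out replicate 1 or replicate 2 of the SO group at 4 h, and gave 0.16 or 0.36 at 4 h, 0.21 or 0.42 in the SO group and 0.16 or 0.26 over both operations. The counts of members under this scaling without each of the 8 arrays were also added after seeing the data, and let-7i-5p was the 1 member that passed, without replicate 1 of the SO group at 4 d and over both operations. The median was above 0 in all 22 fits for the UVD against the SO group over both timepoints, for 4 d against 4 h in the SO group and over both operations, and in 21 of 22, with 1 at 0, for the UVD against the SO group at 4 d and at 4 h and for 4 d against 4 h in the UVD group. All 9 members were above 0 in 18 of the 22 fits for 4 d against 4 h in the SO group, in 15 over both operations and in 3 in the UVD group.

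With the replicate block, the medians were unchanged (0.04 at 4 d and 0.02 at 4 h for the UVD against the SO group, 0.10 and 0.09 for 4 d against 4 h in the UVD and SO groups) and 0 members passed. The block gave 2 calls over all miRNAs in place of 7 for 4 d against 4 h in the SO group and 0 in place of 7 over both operations. The replicate numbers share only a number. By the methods' t-test at the threshold of 0.15, 1 member had a smaller p for the UVD against the SO group at 4 d (let-7a-5p), 2 for 4 d against 4 h in the UVD group (let-7b-5p and let-7i-5p) and 0 in the 2 other comparisons of 2 groups, and 0 passed after Benjamini-Hochberg adjustment; tied values left this test undefined for between 1 and 3 members per comparison.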
